A study of Mus musculus with 9 samples.

Results

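The genes of the 5 NF-κB subunits, Nfkb1, Nfkb2, Rel, Rela and Relb, and of their nuclear cofactor Bcl3 were examined by RiboSeq, which sequences the mRNA fragments that ribosomes protect from nuclease. The 6 genes were chosen by name from the 16921 genes of the deposited table, and all 6 were found there. NF-κB proteins bind DNA as dimers and are held in the cytoplasm of resting cells by inhibitors of the IκB family. LPS, a component of the bacterial outer membrane, acts through TLR4 and the IκB kinases to degrade IκB, after which NF-κB dimers enter the nucleus and switch on inflammatory genes, among them several of their own subunits. In macrophages this is the main transcriptional route from LPS to cytokines.

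The cells were TTP-deficient (Zfp36tm1Pjb) mouse bone marrow-derived macrophages (BMDMs), grown with M-CSF and immortalized with the oncogenes hcmyc and hRasG12V. TTP, encoded by Zfp36, is an RNA-binding protein that directs mRNAs with AU-rich elements to degradation. The cells were transduced with a doxycycline-inducible vector for GFP alone, GFP-TTP or GFP-TTP-AA, in which alanines replace 2 serines of TTP (S52A, S178A) that the kinase MK2 phosphorylates. All 3 groups received 1 µg/ml doxycycline for 6 h and 1 µg/ml LPS for 1 h, and each was represented by 3 libraries labelled as biological replicates. Each condition is a separate transduced line, so that a difference between conditions and a difference between lines cannot be told apart. No library without LPS or without doxycycline was analysed here, so that the comparisons concern which TTP protein was present and not the response to LPS.

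The deposited values are not observed counts. They are values that the authors' model fitted for each gene and library from a term for the condition and a term for the batch of libraries, and they summed to between 2570292 and 12804501 per library. The differences between replicate numbers are therefore the same in every condition by construction, and the spread of the libraries around the fit can be read only from the authors' standard errors (SE). A level below is a fitted value after scaling by library size factors, averaged geometrically over the 3 libraries of a condition. A gene was called changed when its log2 fold change divided by its SE passed an adjusted p of 0.05 over all genes tested. The fold changes are shrunken toward 0 by the authors' model.

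Zfp36 itself was checked first. Its level was 459.0 in GFP, 927.4 in GFP-TTP and 1535 in the mutant, and each difference passed the test (log2 fold change 1.01 for GFP-TTP against GFP, adjusted p = 0.0048, and 1.74 for GFP-TTP-AA against GFP, adjusted p = 2.4e-09). Zfp36 was also higher in GFP-TTP-AA than in GFP-TTP (log2 fold change 0.73 with an SE of 0.25, adjusted p = 0.040). More footprints thus lay on Zfp36 with the mutant than with the wild-type protein, and the part of this in the changes below was not tested. Footprints are not protein, and from western blots the paper reports similar amounts of GFP-TTP and GFP-TTP-AA before and after LPS. Of 9 macrophage markers 8 were in the table and 7 of these had a level of at least 10 in every condition. Of the other markers, 2 of 5 for T cells, 2 of 5 for B cells, 3 of 4 for fibroblasts and 2 of 3 for dendritic cells were in the table. None of these reached 10 in all conditions. The level of Mertk, the remaining macrophage marker, was 4.66 to 5.44. The levels of the macrophage markers summed to 93711 in GFP, 73983 in GFP-TTP and 106471 in the mutant. The sum was thus higher in the mutant than in GFP-TTP, the direction in which all 6 members differed, with Emr1, which encodes F4/80, at 3663, 2292 and 5340, Lyz2 at 64036, 46032 and 71365 and Fcgr1 at 129, 67.2 and 110, whereas Itgam was at 2968, 3190 and 3188. The part of these differences between the lines in the results was not tested. Of 5 neutrophil markers 2 were in the table, with sums of 25.7 to 56.0. S100a8 was at 27.0, 25.6 and 55.8 in GFP, GFP-TTP and GFP-TTP-AA and Mpo at 0.12 to 0.13, and the part of S100a8-expressing cells in the results was not tested. In bulk lysates fewer expressing cells and less footprint RNA per cell cannot be told apart.

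The members differ in the motifs of their 3′UTRs. TTP recognizes AU-rich elements built from the pentamer ATTTA, and the heptamer TATTTAT is its preferred form. Over 9846 kept genes with an annotated 3′UTR, 66.7% hold the pentamer and 27.8% the heptamer in it (GENCODE vM21, GRCm38, transcribed strand only, the pentamer counted also inside the heptamer). Rel, which encodes c-Rel, has 12 pentamers in a 3′UTR of 5418 nt and 2 of them lie in heptamers. Every gene with a 3′UTR of length similar to that of Rel holds the pentamer, with a median of 9, 31.1% of them have as many as Rel, and 65.3% hold the heptamer. Nfkb1, which encodes the p105 precursor of p50, has 4 pentamers in 700 nt, and 9.06% of the genes with a 3′UTR of similar length have as many. Nfkb2, which encodes the p100 precursor of p52, has 1 pentamer in 196 nt. Rela, Relb and Bcl3 have neither motif in 3′UTRs of 714, 336 and 410 nt. Among genes with a 3′UTR of similar length, 63.6% hold the pentamer for Rela, 39.0% for Relb and 45.7% for Bcl3. The following sites are shown because Rel and Nfkb1 are the members with more than 1 pentamer, with the motif in capitals and 9 bases to each side, the heptamers first. They lie on the minus strand, the Rel sites at chr11:23739878-23739902 and chr11:23737836-23737860 and the Nfkb1 sites at chr3:135584851-135584873, chr3:135584819-135584841, chr3:135584709-135584731 and chr3:135584696-135584718.
Rel heptamer 1: aatagtagcTATTTATtagaaaagg
Rel heptamer 2: cccagacttTATTTATtttttttag
Nfkb1 pentamer 1: ttatctgtgATTTAaaaataaaa
Nfkb1 pentamer 2: acttacaatATTTAaaacatgct
Nfkb1 pentamer 3: aaatgttgaATTTAtaaatgcta
Nfkb1 pentamer 4: ataaatgctATTTActtttttat
The Rel heptamers begin at bases 2372 and 4414 of the 3′UTR, whereas the 4 Nfkb1 pentamers lie close together towards its end, from base 491 to base 646. The matches are descriptions of sequence and do not show that TTP was bound.

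The promoters of the members were searched for the motif that NF-κB dimers bind. This κB consensus was searched on both strands in the 300 bases around annotated transcription starts (250 before and 50 after, RefSeq on GRCm38.p6), with overlapping matches counted separately. It was present in 2779 of 32851 windows (8.46%). Of the 4 members with a window, Bcl3, Nfkb2 and Rel held a match and Rela did not. Nfkb2 held the most, with 3, 2 and 1 matches in 3 windows around its annotated starts, the last 2 of which overlap. The match of the last window is also counted in the window before it, and 2 of the 3 matches in the first window overlap, shifted by 1 base. Nfkb1 and Relb had no entry. The Bcl3 window, chr7:19822706-19823005 on the minus strand, is printed because Bcl3 had the largest change of the 6 genes. The Nfkb2 window, chr19:46304487-46304786 on the plus strand, is printed because it holds the most matches, in the gene whose fold change in GFP-TTP-AA against GFP-TTP was nearest to 0, and the Rel window, chr11:23770920-23771219 on the minus strand, because it holds 2 overlapping matches shifted by 1 base. Capitals mark the matches, the first of which begins at base 3 after the start for Bcl3 and 39 and 92 bases before it for Nfkb2 and Rel.
Bcl3 promoter: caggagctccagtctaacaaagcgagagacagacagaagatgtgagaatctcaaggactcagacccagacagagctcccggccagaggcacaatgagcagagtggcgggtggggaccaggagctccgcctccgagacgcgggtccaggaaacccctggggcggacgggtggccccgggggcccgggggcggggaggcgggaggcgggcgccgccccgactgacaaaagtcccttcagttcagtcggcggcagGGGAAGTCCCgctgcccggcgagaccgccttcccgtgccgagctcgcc
Nfkb2 promoter: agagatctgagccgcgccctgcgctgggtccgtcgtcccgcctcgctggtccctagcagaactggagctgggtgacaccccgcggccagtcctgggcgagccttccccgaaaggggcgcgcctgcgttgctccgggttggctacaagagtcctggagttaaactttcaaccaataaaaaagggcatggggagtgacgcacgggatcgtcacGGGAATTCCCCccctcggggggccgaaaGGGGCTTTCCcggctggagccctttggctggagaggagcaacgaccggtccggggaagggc
Rel promoter: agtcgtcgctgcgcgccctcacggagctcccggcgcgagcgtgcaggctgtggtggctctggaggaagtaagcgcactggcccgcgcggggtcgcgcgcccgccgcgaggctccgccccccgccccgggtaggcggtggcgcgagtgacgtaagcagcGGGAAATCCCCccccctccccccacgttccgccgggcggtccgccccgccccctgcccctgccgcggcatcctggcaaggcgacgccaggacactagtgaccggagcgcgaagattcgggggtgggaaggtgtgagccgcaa
The Bcl3 window holds its only match just behind the start of transcription, in a GC-rich promoter. A match is no evidence of a functional site.

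The footprint levels of the 6 genes were set side by side after division by the length of the coding sequence. Per kb of coding sequence, Rela, which encodes the transactivating subunit p65, was the highest in each condition, at 340 in GFP, 343 in GFP-TTP and 435 in the mutant. Nfkb1 was at 246, 204 and 278, Rel at 213, 209 and 290, and Nfkb2 at 177, 183 and 210, in the same order of conditions. Relb, the main partner of p52, stood at 66.6, 69.1 and 97.3, and Bcl3, an atypical IκB protein that binds p50 and p52 homodimers in the nucleus, at 51.4, 49.1 and 82.4. Rela thus made up 32.6% to 34.0% of the summed footprint density of the 5 subunit genes in the 3 conditions and Relb 6.39% to 7.43%. Within each of the 9 libraries, fitted Rela density lay above that of the other members, and that of Rel above that of Nfkb2. Nfkb1 had no fixed place, since it lay above Rel in 4 of the 9 libraries and above Nfkb2 in 7. Relb lay above Bcl3 in 7 of the 9. Over the 3 GFP libraries the densities ran from 313 to 358 for Rela, from 224 to 292 for Nfkb1, from 153 to 330 for Rel and from 122 to 252 for Nfkb2. Those of Relb ran from 45.9 to 109 and those of Bcl3 from 43.7 to 57.2. The order within a library follows from fitted values and carries no error. The summed density of the 5 subunit genes was 1043 in GFP, 1009 in GFP-TTP and 1310 in the mutant, or 0.967 and 1.26 times that of GFP, for which no error can be given.

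**Figure D1:**
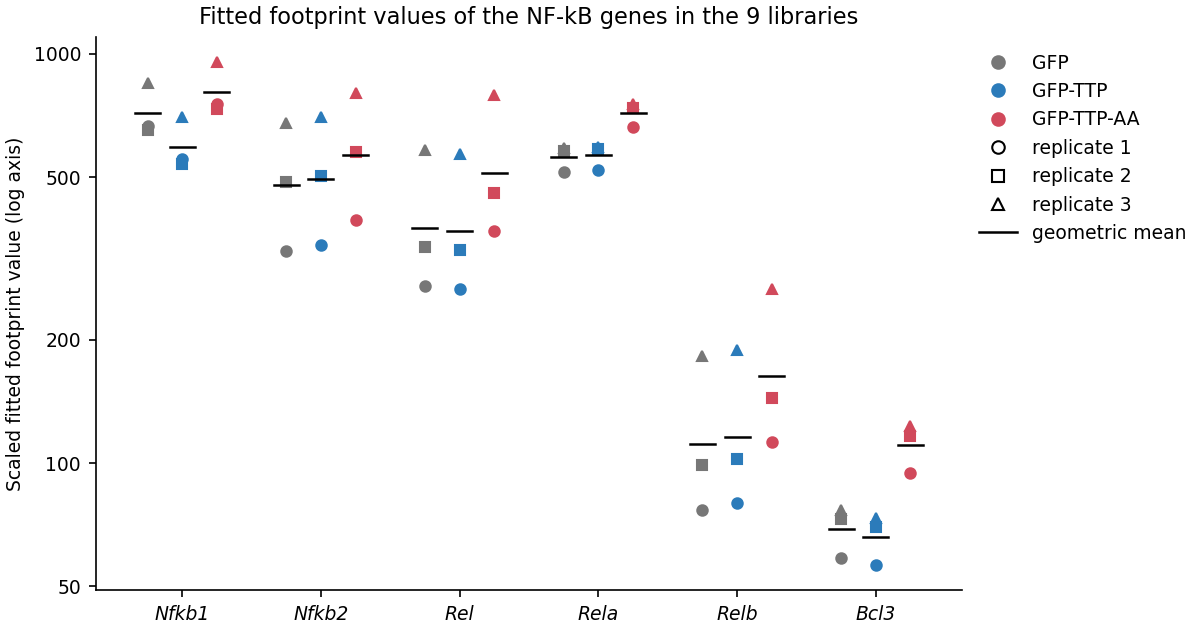
Fitted footprint values of the 6 genes in the 9 libraries, divided by the size factors, on a log axis. Colours give the condition, symbols the replicate number and bars the geometric mean of 3 libraries; the distances between the symbols of a gene are nearly the same in each condition because the values are fitted. Bcl3 runs from 56.3 to 76.9 in GFP and GFP-TTP and from 94.5 to 123 in GFP-TTP-AA.

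In GFP-TTP-AA against GFP-TTP, the comparison that addresses the MK2 sites of TTP, Nfkb1 and Bcl3 were called higher in the mutant, and all 6 genes had a fold change above 0. The 2 members called compare with 10.3% of the 10103 genes tested that were called in this comparison in either direction and 5.59% that were called higher. At an unadjusted p of 0.05, 5 of the 6 members passed, all but Nfkb2, against 22.1% of all genes. The median log2 fold change of the 6 members was 0.46, and that of all genes 0.003. The members were chosen with earlier results of these data known, so that these counts describe them and do not test them as a group.

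Bcl3 had the largest change of the 6 genes. Its fitted values in replicates 1, 2 and 3 were 58.7, 72.9 and 76.9 in GFP, 56.3, 69.7 and 73.4 in GFP-TTP, and 94.5, 117 and 123 in GFP-TTP-AA. The GFP-TTP-AA libraries lay above those of both other conditions, which overlapped each other, and since these are fitted values the separation adds nothing to the test. The level rose from 66.1 in GFP-TTP to 110.7 in the mutant, a log2 fold change of 0.75 with an SE of 0.24 and a 95% interval of 0.27 to 1.22 (adjusted p = 0.026). Over the alternative settings this adjusted p ran from 0.025 to 0.066, and it missed the threshold with a pseudocount of 10, which lowered the fold change of this gene of low level to 0.67. Against GFP the difference of Bcl3 was 0.68 (SE 0.24, adjusted p = 0.099), which missed the threshold.

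Nfkb1 had a higher level in GFP-TTP-AA than in GFP-TTP, with GFP between them. Its fitted values were 666, 653 and 849 in GFP, 552, 539 and 700 in GFP-TTP, and 754, 734 and 956 in GFP-TTP-AA. The GFP-TTP-AA libraries lay above all 3 GFP-TTP libraries and overlapped those of GFP. The log2 fold change of GFP-TTP-AA against GFP-TTP was 0.45 with an SE of 0.15 and a 95% interval of 0.16 to 0.74 (adjusted p = 0.030). The adjusted p was 0.051 when the 3 comparisons were adjusted together and 0.11 when the median of the chromosome was subtracted, so that this call depends on the setting. Against GFP, Nfkb1 differed by −0.28 in GFP-TTP (SE 0.15, adjusted p = 0.49) and by 0.17 in GFP-TTP-AA (SE 0.15, adjusted p = 0.68).

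The other 4 members did not pass the test in this comparison. Rel was at 369.2 in GFP-TTP and 511.7 in the mutant, a log2 fold change of 0.47 (SE 0.20, adjusted p = 0.11). Its fitted values were 270, 337 and 583 in GFP, 266, 331 and 571 in GFP-TTP, and 370, 458 and 792 in GFP-TTP-AA. The libraries of the conditions overlapped, and replicate 3 was the highest in each.
Rela was at 565.6 and 716.3, a log2 fold change of 0.34 (SE 0.15, adjusted p = 0.12). Its fitted values were 515, 579 and 589 in GFP, 521, 585 and 594 in GFP-TTP, and 661, 739 and 753 in GFP-TTP-AA. The GFP-TTP-AA libraries of Rela lay above all others, which the fit alone can give.
Relb was at 115.7 and 162.9, a log2 fold change of 0.49 (SE 0.24, adjusted p = 0.19). Its fitted values were 76.9, 98.8 and 183 in GFP, 80.0, 103 and 189 in GFP-TTP, and 113, 144 and 266 in GFP-TTP-AA. The conditions overlapped widely because replicate 3 stood far above replicates 1 and 2. Within each replicate number Relb, like Rel and Nfkb2, was higher in GFP-TTP-AA than in GFP-TTP. The fit gives nearly the same difference in each replicate number, so that this order adds nothing to the test. The authors' model holds a term for the batch of libraries, so that the overlap in Relb, Rel and Nfkb2 adds nothing either.
Nfkb2 differed least, at 494.1 and 565.2, with a log2 fold change of 0.19, a 95% interval of −0.13 to 0.52 and an adjusted p of 0.54. Its fitted values were 330, 487 and 679 in GFP, 342, 503 and 701 in GFP-TTP, and 392, 575 and 802 in GFP-TTP-AA, which overlapped throughout. Nfkb2 was also the only member whose interval included 0 in this comparison.

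Between GFP-TTP-AA and GFP, none of the 6 members was called, where 3.02% of 10103 genes were called in either direction and 1.74% higher. At an unadjusted p of 0.05, 4 members passed (Bcl3, Rela, Relb and Rel), against 14.2% of all genes. The log2 fold changes of Relb, Rel and Rela were 0.55, 0.45 and 0.35 (adjusted p = 0.23, 0.24 and 0.18). That of Nfkb2 was 0.24 (adjusted p = 0.57). All 6 fold changes were above 0, with a median of 0.40. Comparisons that share the GFP-TTP-AA libraries are not independent, so that the same sign in both of them is no repeat of the result.

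Between GFP-TTP and GFP, none of the 6 members was called, and none passed at an unadjusted p of 0.05. Among the 9938 genes tested 2.1% were called and 11.3% passed unadjusted. The fold changes of 3 members were above 0 and those of the other 3 below, with a median of −0.01. Apart from Nfkb1, they ran from −0.06 to 0.05 with adjusted p-values of 0.96 to 0.99. The 95% interval, not adjusted for the number of genes, was −0.27 to 0.30 for Rela and −0.54 to 0.41 for Bcl3. Differences within these limits remain possible, and the limits do not say how large a difference would be called. In GFP-TTP-AA against GFP, differences of 0.35 for Rela and 0.68 for Bcl3 also missed the adjusted threshold.

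**Figure D2:**
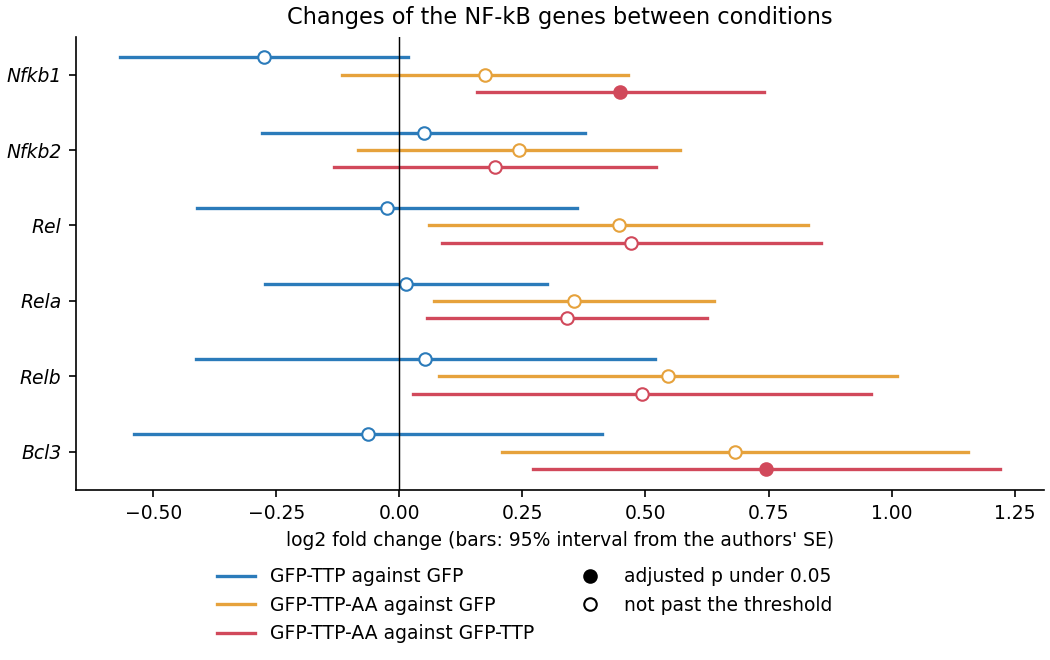
Log2 fold changes of the 6 genes in the 3 comparisons, with 95% intervals from the authors' SE and filled points where the adjusted p was under 0.05. The filled points are Nfkb1 (0.45) and Bcl3 (0.75) in GFP-TTP-AA against GFP-TTP; in GFP-TTP against GFP each interval includes 0.

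Some of these genes differed more between replicate numbers than between conditions. Between replicates 3 and 1, Relb differed by 1.24 on the log2 scale, a 2.37-fold difference, Rel by 1.10 and Nfkb2 by 1.04. These terms lay at the 99.8th, 99.6th and 99.5th percentile of the kept genes, over which their SD was 0.29. Bcl3 differed by 0.38, Nfkb1 by 0.34 and Rela by 0.19. Between replicates 2 and 1 the differences were 0.56 for Nfkb2, 0.36 for Relb, 0.31 for Rel and also 0.31 for Bcl3. Between replicates 3 and 2 they were 0.88 for Relb, 0.79 for Rel, 0.48 for Nfkb2 and 0.38 for Nfkb1. Relb, Rel and Nfkb2 thus stood clear of the other members between replicates 3 and 1, and less so between the other pairs of replicates. The terms were fitted by the authors' model to remove batch differences, no error is given for them, and what differed between the replicate numbers besides the library date was not tested.

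On the log2 scale, the 9 fitted values of Rel and Relb were closely correlated (Pearson's r = 0.998), as were those of Rela and Bcl3 (r = 0.994). Other pairs of members had r between 0.62 and 0.94. A high r does not mean changes of equal size. The difference of GFP-TTP-AA against GFP-TTP was 1.27-fold for Rela and 1.68-fold for Bcl3. Among 8433 genes with a mean level of at least 50, the genes most like each member over the 9 libraries were Mdm4 and Plscr1 for Nfkb1, Adss and Tbc1d10a for Nfkb2, Rab11fip1 and D8Ertd82e for Rel, Hilpda and Dot1l for Rela, D8Ertd82e and Rbm22 for Relb, and Hilpda and Snx13 for Bcl3. The values of r ran from 0.992 to 0.9996. The 9 values of a gene follow from its condition and replicate terms alone, so that high correlations are common and are given as a description.

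Medians of the fold changes differed between chromosomes, so each member was also set against its own chromosome and locus. In GFP-TTP-AA against GFP-TTP, the median log2 fold change was 0.08 over the 475 kept genes of chromosome 3, which holds Nfkb1, −0.11 on chromosome 11, which holds Rel, −0.09 on chromosome 19, which holds Nfkb2 and Rela, and 0.01 on chromosome 7, which holds Relb and Bcl3. After this median was subtracted, 3 members were called, Bcl3 at 0.73 (adjusted p = 0.033), Rel at 0.58 (adjusted p = 0.040) and Rela at 0.43 (adjusted p = 0.038). Nfkb1, at 0.37, was no longer called (adjusted p = 0.11), nor were Relb (adjusted p = 0.22) and Nfkb2 (adjusted p = 0.34). Bcl3 was therefore the member called both with and without the subtraction. In GFP-TTP against GFP, the subtraction turned the sign of Nfkb2 and Rela, without a call.

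Rel stood apart from its neighbours. All 6 kept genes within 0.5 Mb of Rel had lower values in GFP-TTP-AA than in GFP-TTP, from −0.51 to −0.17 with a median of −0.37, whereas Rel was at 0.47. In GFP-TTP against GFP all 6 lay above 0, with a median of 0.22, and Rel was at −0.03. Around Bcl3, 16 neighbours had a median of 0.08 and a highest value of 0.54, below the 0.75 of Bcl3. Around Nfkb1, 5 neighbours reached at most 0.35, below its 0.45. Nfkb2, Rela and Relb lay within the range of their neighbours. Relb and Bcl3 themselves start 193332 bp apart and share part of these neighbours, so that their changes are not from independent places in the genome.

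**Figure D3:**
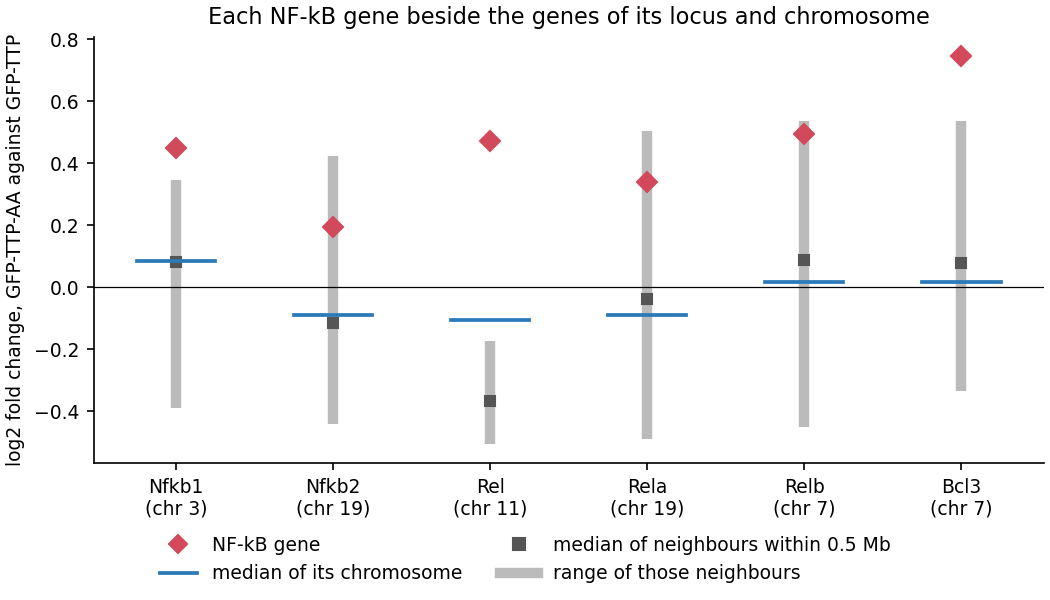
Log2 fold changes of each member in GFP-TTP-AA against GFP-TTP (red diamonds), beside the median of the kept genes of its chromosome (blue lines) and the median and range of the kept genes within 0.5 Mb (grey squares and bars). Nfkb1, Rel and Bcl3 lie above the range of their neighbours, and the neighbours of Rel all lie below 0.

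The other genes of the pathway, from lists that had also been chosen with earlier results of these data known, were described by role. In GFP-TTP-AA against GFP-TTP, none of the 11 IκB and IκB kinase genes was called, with a median log2 fold change of 0.25, and 4 passed unadjusted. These 4 are 36.4% of the list, where 22.1% of all genes passed unadjusted. Nfkbia, which encodes the IκBα that NF-κB induces to end its own activity, was at 0.25 (adjusted p = 0.35), and at −0.23 in GFP-TTP against GFP (adjusted p = 0.62) and 0.02 in GFP-TTP-AA against GFP (adjusted p = 0.99).
Of 17 genes that lead from TLR4 to the IκB kinases, 2 were called higher, Ly96, which encodes the LPS-binding partner of TLR4 (0.56, adjusted p = 0.034), and Traf2, an adaptor of TNF receptor signalling (0.51, adjusted p = 0.021). These are 11.8% of the list, near the 10.3% of all genes, and the 4 that passed unadjusted are 23.5%, near the 22.1% of all genes. The call of Ly96 was lost under joint adjustment and with a pseudocount of 10 (adjusted p = 0.056 in both).
None of the 6 genes of the SCF ubiquitin ligase and precursor processing was called, none passed unadjusted, and all 6 lay below 0 (median −0.13).
Of 10 genes that regulate Bcl3 or p65, Sirt1, a deacetylase of p65, was called higher (0.64, adjusted p = 0.039) and Ep300, which acetylates p65, lower (−0.47, adjusted p = 0.026). These calls are 20% of the list, where 10.3% of all genes were called. The genes that passed unadjusted are also 20%, where 22.1% of all genes passed. With the median of the chromosome subtracted, neither Sirt1 nor Ep300 was called (adjusted p = 0.19 and 0.099).

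NF-κB target genes formed the longest list. Of 30 listed genes 25 passed the filter on low values, and Vcam1, Bcl2a1d, Cxcl1, Il12b and Csf2 did not. Here too in GFP-TTP-AA against GFP-TTP, 5 rose, 1 fell and 12 passed unadjusted, with a median of 0.27. The calls were 24% of the genes tested, where 10.3% of all genes were called, the higher calls 20%, where 5.59% were, and the unadjusted passes 48%, where 22.1% were. The largest change was that of Traf1, an adaptor that binds TRAF2 (1.23, adjusted p = 6.9e-06), followed by Cd83, an activation marker of myeloid cells (0.92, adjusted p = 0.0035), and Birc3, an inhibitor of apoptosis (0.80, adjusted p = 0.0024). Gadd45b and Tnip1, a partner of A20, were also called higher (0.72 and 0.62, adjusted p = 0.0070 and 0.012), and the chemokine gene Ccl3 was called lower (−0.42, adjusted p = 0.027). With the median of the chromosome subtracted, Ccl3, the gene called lower, and Gadd45b were no longer called (−0.31 and 0.55, adjusted p = 0.15 and 0.065), and Nos2 and Sod2 were called instead. Cd83, at 16.6 to 31.4, lay below the filter of 50 and lost its call with a pseudocount of 10 (0.64, adjusted p = 0.086). Tnfaip3, which encodes A20, was at 0.21 (adjusted p = 0.56), and at −0.26 in GFP-TTP against GFP (adjusted p = 0.67) and −0.04 in GFP-TTP-AA against GFP (adjusted p = 0.97).
Between GFP-TTP-AA and GFP, 3 targets were called higher, Traf1 (0.90, adjusted p = 0.0068), Tnip1 (0.76, adjusted p = 0.0031) and Sod2, the mitochondrial superoxide dismutase (0.61, adjusted p = 0.046), which is 12% of the list against 3.02% of all genes. No gene of the other 4 lists was called there. Unadjusted, 35.3% of the genes from TLR4 to the IκB kinases and 32% of the targets passed, against 14.2% of all genes. The shares were 20% for the Bcl3 and p65 regulators, 9.09% for the IκB and IκB kinase genes and 0% for the SCF list. In GFP-TTP against GFP no gene of any of the 5 lists was called by this Wald test, where 2.1% of all genes were called. There 3 genes passed unadjusted, 9.09% of the IκB and IκB kinase list and 8% of the targets, against 11.3% of all genes.

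**Figure D4:**
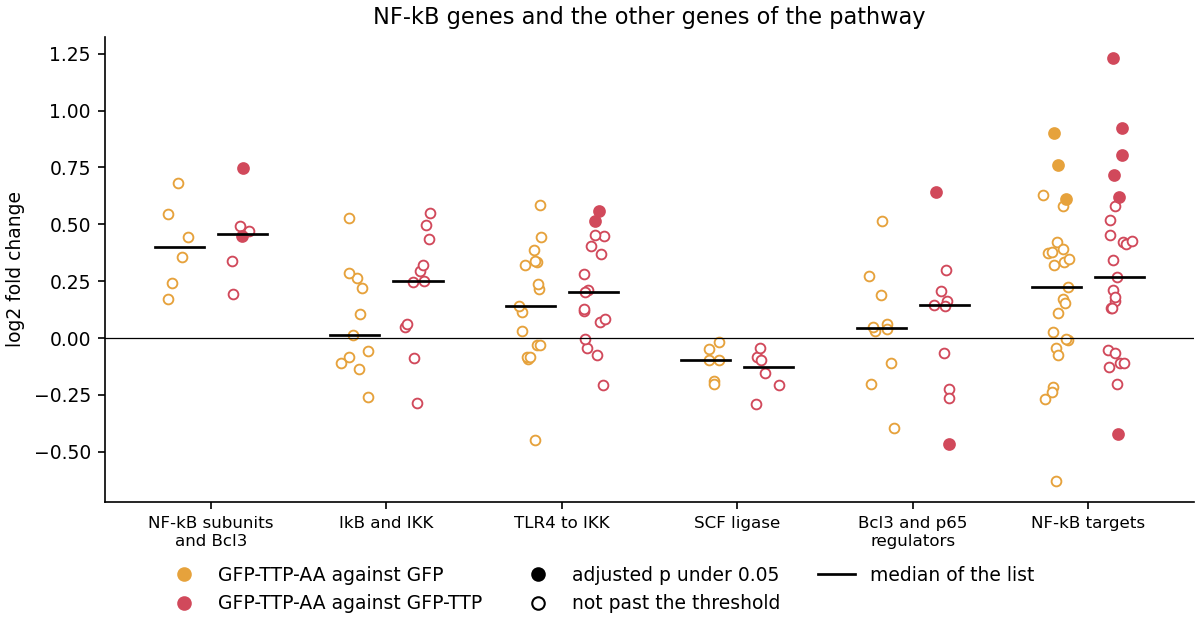
Log2 fold changes of the 6 NF-κB genes and of the tested genes of 5 pathway lists in GFP-TTP-AA against GFP (orange) and against GFP-TTP (red), with filled points where the adjusted p was under 0.05 and bars at the median of each list. The medians of the 6 genes, 0.40 and 0.46, lie above those of the other lists, and no test of this difference was made.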

How the data were processed

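RiboSeq libraries from 3 conditions with 3 replicates each were analysed, grouped by the labels. The authors prepared them with the ARTseq kit and mapped them to GRCm38 (mm10) with TopHat, keeping up to 2 alignments per read. The submitters' processing notes name Trim Galore, TopHat2 2.0.12, HTSeq and DESeq2 1.6.3. The authors' deposited table of normalized counts holds a signal, namely the values fitted by their DESeq2 model (library date and condition), in 16932 lines for 16921 genes, of which 11 lines repeat a gene. After condition, replicate and library terms its log2 values left a residual SD of 2.87e-15 and there were 0 zeros. Observed counts were not used here, so that a count test could not be run. The deposited comparison tables hold the authors' mean, log2 fold change, standard error, statistic and p-values, of which only the log2 standard error was used.

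Size factors were computed by the median of ratios (0.415 to 2.12). Genes with a scaled mean of at least 10 were kept (10103). The log2 fold change of the fitted values, without a pseudocount, was divided by the authors' SE (largest 0.25) and tested two-sided against the normal distribution (Wald test), with Benjamini-Hochberg adjustment per comparison and a threshold of 0.05. The script was tested on simulated data. Depth limits the results through the SE. A 3′UTR was compared with those of 0.8 to 1.25 times its length. Named were the 6 members, up to 3 called genes per list and comparison with the largest change (beyond these, Gadd45b, Tnip1, Ccl3 and Nos2 were named after their values were seen), Nfkbia, Tnfaip3, Zfp36 and, per member, the 2 most alike genes. Members and lists were chosen with earlier results of these data known. Alternatives were filters of 50 and none, subtraction of the median of all genes or of the chromosome, joint adjustment, and pseudocounts of 1 and 10. Python 3.11.15, numpy 2.4.6, pandas 2.3.3, scipy 1.17.1 and matplotlib 3.10.9 were used.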

Additional observations from a re-analysis of the deposited data

How the results depend on the processing

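Under 7 alternative settings, the 6 members in 3 comparisons gave 126 values, of which 119 kept their sign and their side of the threshold. In GFP-TTP-AA against GFP-TTP, the count of members called fell from 2 to 1 (Bcl3) when the 3 comparisons were adjusted together, and there the lists from TLR4 to the IκB kinases and of Bcl3 and p65 regulators each gave 1 call (Traf2 and Ep300). With the median of the chromosome subtracted, 3 members were called (Bcl3, Rel and Rela), the list of Bcl3 and p65 regulators gave 0 calls, the target genes kept a count of 6 with Nos2 and Sod2 in place of Ccl3 and Gadd45b, and in GFP-TTP against GFP the values of Nfkb2 and Rela reversed, to −0.13 and −0.16. In GFP-TTP-AA against GFP-TTP, the fold change of Nfkb1 was 0.45 under joint adjustment (adjusted p = 0.051) and 0.37 with the chromosome median subtracted, those of Rel and Rela were then 0.58 and 0.43, and that of Bcl3 was 0.67 with a pseudocount of 10 (adjusted p = 0.066). The SE was kept as given when a pseudocount shrank a fold change, so that the latter loss follows from that construction. Joint adjustment altered only the adjusted p, and the subtraction shifted each fold change by the median of its chromosome. Why these medians differed between chromosomes was not tested. No paired analysis was possible because the deposited values are fitted and carry no spread around the replicate terms. For the same reason the settings that leave out a replicate and the replicate block were not run. Reads per gene are not in the tables used here, so that depth enters only through the SE, which was 0.24 for Bcl3 and Relb and 0.15 for Nfkb1 and Rela, and its share in that SE was not tested.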
